A study of Mus musculus with 6 samples.

Results

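Mitosis and kinetochore genes encode the machinery that drives a cell into division and parts its chromosomes. The list holds 46 gene symbols with a known part in mitosis, grouped here by role. It was chosen with earlier results of these data known. Each gene was read from the probe set assigned to it alone that was brightest over the 6 arrays, and 41 of the 46 had a mean of at least 4 on the log2 intensity scale and were tested, among 10271 tested genes of 19775 on the array. All arrays hold RNA of subcutaneous tumours in SCID mice, which lack mature T and B cells but keep other host cells. The tumour cells in every group were NCI-H2228, an established line from a human lung adenocarcinoma with the EML4-ALK fusion. Mice received vehicle or the ALK kinase inhibitor CH5424802 (alectinib) by mouth, at a dose of 4 mg/kg or 20 mg/kg, and tumours were taken after 6 h, with 2 arrays in each of the 3 groups. The labels give no animal for an array, so the p-values cover only the spread between these arrays, and that spread may be technical.

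Entry into mitosis is switched on by cyclin B bound to the kinase CDK1, which the CDC25 phosphatases activate and WEE1 restrains. Chromosomes then attach to spindle microtubules through kinetochores, and the spindle assembly checkpoint holds back the anaphase-promoting complex until every kinetochore is attached. Transcripts of these genes build up in G2 under FOXM1 and B-MYB and are repressed in resting cells by the DREAM complex, so their level in a tumour follows the share of cells in G2 and mitosis as well as the level per cell. In bulk RNA fewer dividing cells and less RNA per cell cannot be told apart.

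In most of these genes the mean over the 2 arrays was highest at the lower dose, but not in most once 4 mg/kg replicate 2 was left out. At 4 mg/kg the log2 change from vehicle was above 0 in 37 of 41 members (45.3% of all tested genes), with a median of 0.49 against 0.00 over all tested genes. At 20 mg/kg it was above 0 in 28 of 41 (41.8%), with a median of 0.21 against 0.00. The median at 20 mg/kg was 0.05 without vehicle replicate 2, 0.04 without 20 mg/kg replicate 2 and 0.06 with the next brightest probe sets. The mean at 4 mg/kg exceeded both other groups by over 0.05 log2 units in 29 of 41 members, as it did in 20.8% of all tested genes. Without 4 mg/kg replicate 2 it did so in 13 of 41 members (14% of all tested genes), and the median at 4 mg/kg was 0.21. A single member passed the test in any comparison, the topoisomerase gene TOP2A, which rose at 20 mg/kg. The test was limma over all 10271 genes with Benjamini-Hochberg adjustment and a threshold of 0.05. It called 1 of 41 members at 20 mg/kg, where it called 4.33% of all tested genes (2.26% higher and 2.07% lower), and 0 of 41 at 4 mg/kg, where it called 0.0584% (0.0292% in each direction). The share of members called at 20 mg/kg was therefore not above the background. At an unadjusted p under 0.05, 17 of 41 members were higher and 0 lower at 4 mg/kg, against 12.2% and 4.76% of all tested genes (17% in either direction). At 20 mg/kg 9 were higher and 2 lower, against 12.7% and 11.5% (24.2% in either direction).

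Both 4 mg/kg arrays lay above both vehicle arrays in 27 of 41 members (22.8% of all tested genes) and below them in 0 (14.8%). Both 20 mg/kg arrays lay above vehicle in 19 members (24.5%) and below in 5 (25.9%). In 19 members all 4 treated arrays were above both vehicle arrays, against 16.6% of all tested genes. Those comparisons share the vehicle arrays. In 11 members, against 8.24%, both 4 mg/kg arrays were above all other arrays: CDK1, CKS2, MAD2L1, NUF2, SPC25, KIF14, KIF23, ANLN, ECT2, TOP2A and NCAPG.

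**Figure D1:**
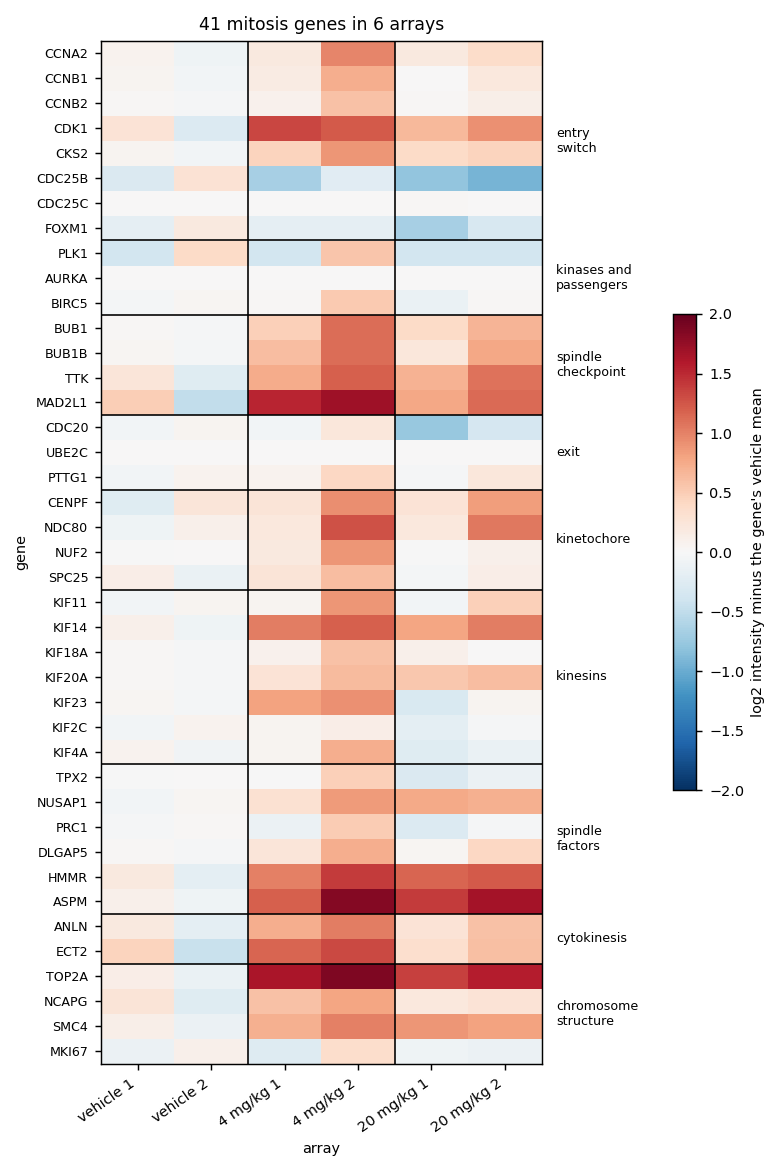
Log2 intensity of the 41 tested members (rows, grouped by role) in each of the 6 arrays (columns), as the difference from the gene's own vehicle mean, red for higher and blue for lower. The column of 4 mg/kg replicate 2 holds the highest value in 35 of 41 rows.

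One array stood apart in these genes. The second 4 mg/kg array read higher than any other in 35 of 41 members, as it did in 24.2% of all tested genes. It was above the first 4 mg/kg array in 37 members, by a median of 0.45, where the median over all tested genes was 0.08. Between the 20 mg/kg arrays the median difference was 0.18, with replicate 2 higher in 32 members, and between the vehicle arrays it was -0.04. Vehicle replicate 2 was the lowest array in 21 members, as it was in 19.5% of all tested genes, and it enters both comparisons with vehicle. Without 4 mg/kg replicate 2 the median change at 4 mg/kg was 0.21 and the mean was highest at 4 mg/kg in 13 of 41 members (14% of all tested genes). Without 4 mg/kg replicate 1 these were 0.79 and 36 of 41 (28.5%). The median log2 value of all tested genes was 8.75 in 4 mg/kg replicate 2 and between 8.56 and 8.65 in the other 5 arrays. Once each array was centred on that median, the members' median change was 0.39 at 4 mg/kg and 0.17 at 20 mg/kg, where all tested genes shifted to -0.10 and -0.03. The intensity of an 18S ribosomal RNA control was 1713 and 4058 with vehicle and between 374.2 and 637.1 in the treated arrays, so it moved with treatment in both comparisons with vehicle. The difference between 3' and 5' probe sets, a sign of RNA quality, stayed between -0.02 and 0.10 log2 units for beta-actin and between -0.25 and -0.01 for GAPDH. The part of these array differences in the results was not tested beyond the fits without each array.

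The member past the test acts on chromosome structure. TOP2A, which untangles sister chromatids before they part, read 9.73 and 9.45 with vehicle, 11.23 and 11.45 at 4 mg/kg, then 10.96 and 11.16 at 20 mg/kg, on the log2 scale. All 4 treated arrays were above both vehicle arrays, and the 4 mg/kg arrays were the highest. TOP2A was 2.76-fold higher at 20 mg/kg (log2 1.47, SE 0.15, adjusted p = 0.0364, n = 2 arrays per group by limma), which passed the test. At 4 mg/kg it was 3.36-fold higher (log2 1.75, SE 0.15) with an adjusted p of 0.113 from limma, which did not. The call at 20 mg/kg was lost without vehicle replicate 2 (log2 1.32, adjusted p = 0.112), without either 4 mg/kg array (1.47, adjusted p = 0.0872), without 20 mg/kg replicate 1 (1.57, adjusted p = 0.148) or replicate 2 (1.37, adjusted p = 0.141). With a replicate block its adjusted p was 0.078, and with no level filter 0.12. The next brightest TOP2A probe set read 0.64 (limma adjusted p = 0.0926) at 20 mg/kg and 0.90 at 4 mg/kg. With vehicle that probe set was the brighter one, at 9.89 and 9.98. The probe set tested was thus the brightest only through its treated arrays, so the choice favoured a rise.

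SMC4, a core subunit of condensin, which compacts mitotic chromosomes, read 10.80 and 10.58 with vehicle, 11.40 and 11.70 at 4 mg/kg, then 11.58 and 11.50 at 20 mg/kg. All treated arrays were above vehicle, and the arrays of the 2 doses overlapped. Its log2 change was 0.86 (SE 0.14) at 4 mg/kg and 0.85 (SE 0.14, limma adjusted p = 0.0695) at 20 mg/kg, and its other probe set gave 0.41 and 0.23. The condensin subunit NCAPG was at 0.68 and 0.24. MKI67, the proliferation marker Ki-67 that coats mitotic chromosomes, was at 0.05 and -0.10, and its arrays overlapped between all groups.

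**Figure D2:**
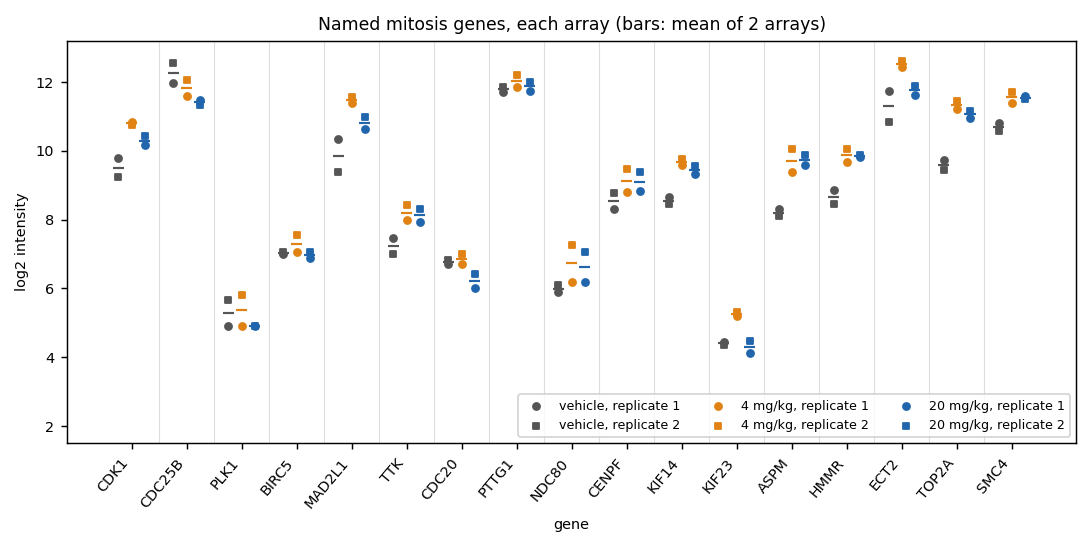
Log2 intensity (vertical axis) of the 17 named members in each array, circles for replicate 1 and squares for replicate 2, with a bar at the mean of the 2 arrays. For TOP2A, ASPM, HMMR, KIF14 and SMC4 all 4 treated arrays sit above both vehicle arrays, and for CDC25B both 20 mg/kg arrays sit below them.

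Among genes of the switch into mitosis the mean of the kinase and of its cyclins was above vehicle at both doses and that of an activator below it, none past the test. CDK1 read 9.78 and 9.24 with vehicle, 10.85 and 10.74 at 4 mg/kg, then 10.16 and 10.42 at 20 mg/kg. Its groups did not overlap, with 20 mg/kg between the others. The log2 change was 1.28 (SE 0.23, limma adjusted p = 0.166) at 4 mg/kg and 0.78 (SE 0.23, limma adjusted p = 0.155) at 20 mg/kg. The 2 other CDK1 probe sets that reached the level filter gave smaller changes, 0.21 and 0.16 at 4 mg/kg, then 0.03 and 0.11 at 20 mg/kg. CKS2, a small subunit that binds CDK1, was at 0.66 and 0.41 at the 2 doses. The cyclins CCNA2 (0.59 and 0.28), CCNB1 (0.45 and 0.10) and CCNB2 (0.33 and 0.07) also had their highest mean at 4 mg/kg, all with limma adjusted p-values of at least 0.454.

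CDC25B, the phosphatase that starts CDK1 activation, went the other way: 11.98 and 12.56 with vehicle, 11.60 and 12.05 at 4 mg/kg, then 11.48 and 11.34 at 20 mg/kg. The 20 mg/kg arrays were the lowest and did not overlap with either other group, while vehicle and 4 mg/kg overlapped. Its log2 change was -0.44 (SE 0.28) at 4 mg/kg and -0.86 (SE 0.28, limma adjusted p = 0.183) at 20 mg/kg. FOXM1, the transcription factor that induces many of the other members, was likewise at -0.19 and -0.50, with both 20 mg/kg arrays below vehicle. FOXM1 read 8.07 in vehicle replicate 1 and in both 4 mg/kg arrays, so its change at 4 mg/kg comes only from vehicle replicate 2, at 8.44. CDC25B and FOXM1 were the only members with a negative mean change at both doses. Each is read by 1 probe set, and that of FOXM1 has a name ending in _x_at, which marks probes that may match other transcripts. CDC25C, a later acting phosphatase, read 5.93 in 5 arrays and 5.95 in 20 mg/kg replicate 1.

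All 4 spindle checkpoint genes had every treated array above both vehicle arrays, as did 16.6% of all tested genes, and none passed the test. MAD2L1, whose product inhibits CDC20 at unattached kinetochores, read 10.35 and 9.37 with vehicle, 11.39 and 11.55 at 4 mg/kg, then 10.63 and 10.99 at 20 mg/kg. Its vehicle arrays lay far apart, and the 4 mg/kg arrays were the highest. The change was 1.61 (SE 0.39, limma adjusted p = 0.203) at 4 mg/kg and 0.95 (SE 0.39) at 20 mg/kg, but its next brightest probe set read 0.15 and -0.24. The kinase TTK, or MPS1, which starts checkpoint signalling, read 7.48 and 6.99 with vehicle, 7.98 and 8.43 at 4 mg/kg, then 7.94 and 8.32 at 20 mg/kg. The arrays of both doses overlapped and lay above vehicle, with changes of 0.97 and 0.89 (SE 0.28 for both, limma adjusted p = 0.242 and 0.18). The kinase BUB1 (0.80 and 0.53) and its relative BUB1B, or BubR1 (0.87 and 0.50), had their highest mean at 4 mg/kg.

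Of the 3 genes of anaphase and mitotic exit none passed the test. CDC20, which activates the anaphase-promoting complex, read 6.72 and 6.82 with vehicle, 6.72 and 6.99 at 4 mg/kg, then 6.01 and 6.43 at 20 mg/kg. The 20 mg/kg arrays were below all others. Its change was 0.09 (SE 0.19) at 4 mg/kg, -0.05 when 4 mg/kg replicate 2 was left out and -0.01 once arrays were centred. At 20 mg/kg it was -0.55 (SE 0.19, limma adjusted p = 0.201). PTTG1, or securin, which guards the cohesin cutter separase, read 11.72 and 11.85, then 11.85 and 12.19, then 11.75 and 12.01, with all 3 groups overlapping. Its changes were 0.24 and 0.10 (SE 0.17) and come from a probe set of the _x_at kind. UBE2C, the ubiquitin-conjugating enzyme of the complex, read 7.50 in all 6 arrays, an equal value that does not show steady expression.

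Of the mitotic kinases and the chromosomal passenger complex 3 of 5 genes were tested, none past the test and all with overlapping groups. PLK1, the kinase that matures centrosomes and spindle, read 4.90 in 4 arrays, 5.65 in vehicle replicate 2 and 5.82 in 4 mg/kg replicate 2. The high values were in replicate 2 of both groups that overlapped. Its change was 0.09 (SE 0.43) at 4 mg/kg, turning to -0.29 when vehicle replicate 1 was left out and to -0.37 when 4 mg/kg replicate 2 was, and it was -0.37 at 20 mg/kg. BIRC5, or survivin, a passenger subunit, read 6.99 and 7.07 with vehicle, 7.05 and 7.55 at 4 mg/kg, then 6.89 and 7.05 at 20 mg/kg, with all groups overlapping and changes of 0.27 and -0.06 (SE 0.20). AURKA, the centrosome kinase, was at 8.05 in all 6 arrays, while its next probe set gave 0.27 and 0.09. AURKB and CDCA8, the passenger kinase and borealin, lay at the floor of 2.19 in every array and were not tested.

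All 4 tested kinetochore genes had both 4 mg/kg arrays above vehicle, as did 22.8% of all tested genes. Their log2 changes were 0.44 to 0.74, none past the test. NDC80, the main microtubule coupler, read 5.90 and 6.09 with vehicle, 6.20 and 7.26 at 4 mg/kg, then 6.20 and 7.05 at 20 mg/kg. In both treated groups replicate 1 sat close to vehicle and replicate 2 well above it, so the changes of 0.74 and 0.64 have an SE of 0.50 (limma adjusted p = 0.564 and 0.51). Its partners in the same complex, NUF2 (0.55 and 0.05) and SPC25 (0.44 and 0.04), were near vehicle at 20 mg/kg. CENPF, a large protein of the outer kinetochore, read 8.30 and 8.78, then 8.80 and 9.47, then 8.82 and 9.37, with changes of 0.60 and 0.56 (SE 0.37). The centromeric histone CENPA (2.19 to 2.34) and the motor CENPE (2.43 to 2.63) were close to the floor and not tested.

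Of the kinesins, motors that move along or take apart microtubules, 7 of 8 genes were tested and none passed. KIF14, which acts in the final step of cell separation, read 8.65 and 8.46 with vehicle, 9.58 and 9.75 at 4 mg/kg, then 9.34 and 9.57 at 20 mg/kg. All 4 treated arrays were well above vehicle, and the lower 4 mg/kg array was close to the higher 20 mg/kg array. The change was 1.11 (SE 0.13, limma adjusted p = 0.138) at 4 mg/kg and 0.90 (SE 0.13, limma adjusted p = 0.0553) at 20 mg/kg, and a second probe set gave 1.06 and 1.15. KIF23, a subunit of centralspindlin at the central spindle, read 4.45 and 4.37 with vehicle, 5.21 and 5.32 at 4 mg/kg, then 4.11 and 4.46 at 20 mg/kg. It was high only in the 4 mg/kg arrays, at 0.85 (SE 0.14, limma adjusted p = 0.166), and at -0.13 at 20 mg/kg. KIF20A, which carries the passenger complex to the midzone, was at 0.46 and 0.57, and KIF11, the motor that pushes spindle poles apart, at 0.48 and 0.21. The other kinesins were KIF18A (0.34 and 0.05), KIF4A (0.38 and -0.19) and the microtubule depolymerase KIF2C (0.09 and -0.12). KIF15 lay at the floor in every array.

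**Figure D3:**
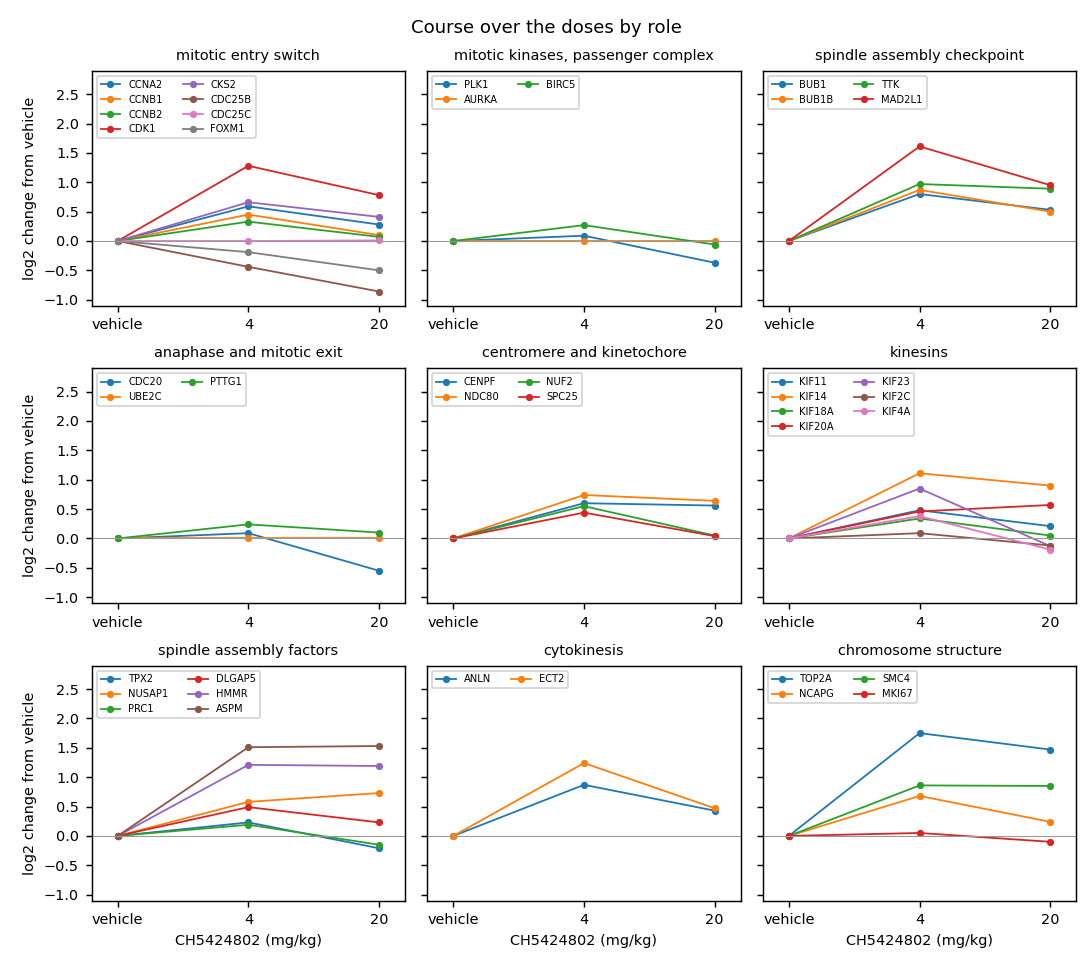
Mean log2 change from vehicle (vertical axis) at vehicle, 4 and 20 mg/kg (horizontal axis, evenly spaced categories) for each of the 41 tested members, in 1 panel per role. Most lines peak at 4 mg/kg, those of ASPM, HMMR and SMC4 have nearly equal means at both doses, and those of CDC25B and FOXM1 go down.

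Of the spindle factors, ASPM and HMMR had nearly equal means at both doses. ASPM, which holds microtubules at spindle poles, read 8.30 and 8.11 with vehicle, 9.39 and 10.04 at 4 mg/kg, then 9.60 and 9.87 at 20 mg/kg. It was 2.85-fold higher at 4 mg/kg (log2 1.51) and 2.88-fold at 20 mg/kg (log2 1.53, SE 0.27, limma adjusted p = 0.0759), the largest change of any member at that dose, though it did not pass. Of its 2 other probe sets the first gave 1.57 and 1.39 and the second 0.20 and 0.19. HMMR, a spindle pole protein and hyaluronan receptor, read 8.86 and 8.46, then 9.67 and 10.06, then 9.82 and 9.89. All treated arrays were above vehicle, with changes of 1.21 and 1.19 (SE 0.21, limma adjusted p = 0.166 and 0.0744), against 0.38 and 0.22 in its next probe set. NUSAP1, which bundles microtubules near chromosomes, was at 0.58 and 0.73. DLGAP5, a spindle stabiliser, was at 0.49 and 0.23. TPX2, the activator of AURKA, was at 0.23 and -0.21 (SE 0.19), and PRC1, which crosslinks the central spindle, at 0.19 and -0.15 (SE 0.25).

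Both genes of cytokinesis had their highest mean at 4 mg/kg, and neither passed the test. ECT2, which turns on the contractile ring, read 11.73 and 10.85 with vehicle, 12.45 and 12.61 at 4 mg/kg, then 11.63 and 11.89 at 20 mg/kg. Only the 4 mg/kg arrays were clear of vehicle. The change was 1.24 (SE 0.34, limma adjusted p = 0.226) at 4 mg/kg and 0.47 at 20 mg/kg. ANLN, the ring scaffold anillin, was at 0.87 and 0.43.

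The comparison of 20 with 4 mg/kg asks whether the higher dose differed from the lower one, and the vehicle arrays enter it only through the pooled spread. Of the 41 members 36 had a lower mean at 20 mg/kg (51.6% of all tested genes) and 4 a higher one, with a median log2 difference of -0.28 against -0.01 over all tested genes. limma called 0 of 41, and 0.37% of all tested genes (0.127% higher and 0.243% lower). At an unadjusted p under 0.05, 0 members were higher and 2 lower, KIF23 and CDC20, against 4.62% and 8.79% of all tested genes (13.4% in either direction). Both 20 mg/kg arrays lay below both 4 mg/kg arrays in 17 members (22.8% of all tested genes) and above them in 0 (13.6%). KIF23 differed most, at -0.98 (SE 0.14, adjusted p = 0.121 by limma), followed by ECT2 at -0.77 (SE 0.34), MAD2L1 at -0.67 (SE 0.39) and CDC20 at -0.64 (SE 0.19, adjusted p = 0.3 by limma). KIF23 was also the dimmest of the tested members, with a mean of 4.65, close to the level filter of 4. It was not among the members tested with the stricter filter of 6. CDK1 was at -0.50, CDC25B at -0.42, TOP2A at -0.28 (SE 0.15, adjusted p = 0.595 by limma) and KIF14 at -0.21, or 0.09 in its next probe set. Without 4 mg/kg replicate 2 the median difference was -0.04.

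How many members pass changed with the scaling of the arrays and with other settings. With the scaling kept but genes tied in all groups left out, 5 of 40 members passed at 20 mg/kg, where 8.41% of all tested genes did. After quantile normalization 8 members passed at 20 mg/kg and 1 at 4 mg/kg, where 15% and 0.399% of all tested genes did. With arrays centred on their median 11 passed at 20 mg/kg, 9 higher and 2 lower, and 14 passed at 4 mg/kg, all higher, where 19.1% and 7.46% of all tested genes did. The 14 were CDK1, CKS2, BUB1, BUB1B, TTK, MAD2L1, KIF14, KIF23, HMMR, ASPM, ANLN, ECT2, TOP2A and SMC4.

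Different probe sets of a gene gave the same side of vehicle more often than the same size. For 18 members at least 1 other probe set had a mean log2 of at least 4, 23 in all. At 4 mg/kg 20 of these 23 were above vehicle, with a median of 0.22 against 0.64 for the brightest probe sets of the same 18 genes. At 20 mg/kg 15 were above vehicle, with a median of 0.09 against 0.495. The brightest probe set was picked by its mean over all 6 arrays, treated ones included, which can favour a rise. For TOP2A and HMMR another probe set was the brighter one with vehicle (HMMR 9.16 and 9.14 against 8.86 and 8.46). The second KIF14 probe set (1.06 and 1.15) and the first of the 2 further ASPM ones were close to the brightest, and the second ASPM one, at 0.20 and 0.19, was not. The second CENPF probe set gave 0.85 and 0.48, and that of CCNB1, at 0.83 and 0.35, was larger than the brightest. Those of the other cyclins, CCNA2 (0.18 and 0.00) and CCNB2 (0.09 and 0.00), were smaller. None of the 4 MKI67 probe sets was above 0.22 at either dose.

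**Figure D4:**
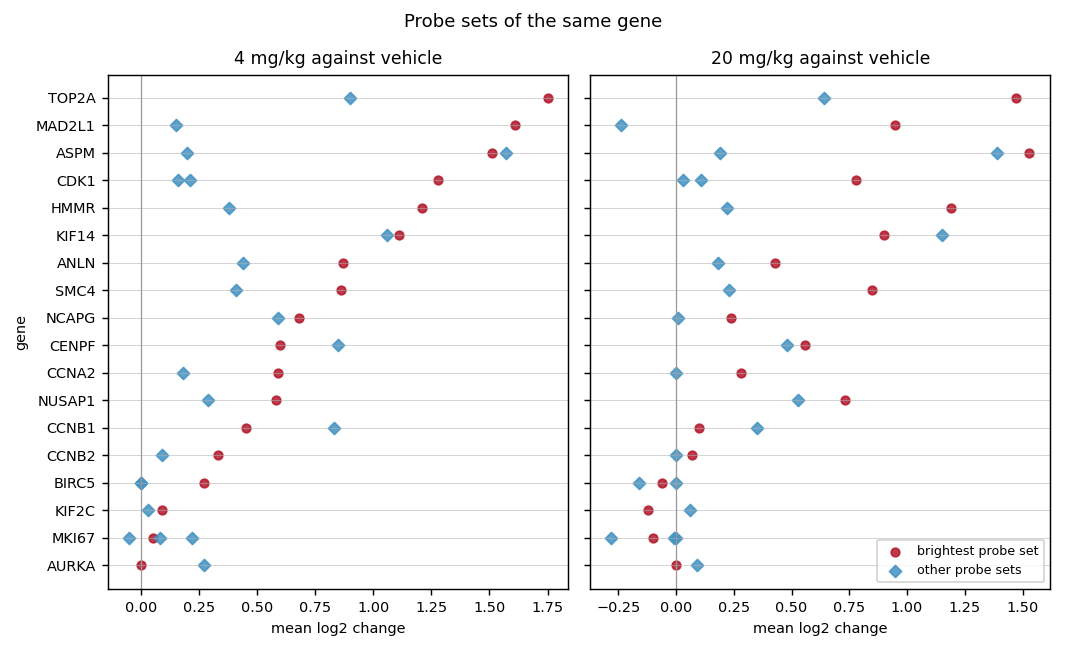
Mean log2 change from vehicle (horizontal axes) at 4 mg/kg (left) and 20 mg/kg (right) for the 18 members with several probe sets, circles for the brightest and diamonds for the others. Most diamonds lie closer to 0 than the circle of the same gene, as for TOP2A (0.90 against 1.75 at 4 mg/kg).

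Lists of related genes were read in the same fits. At an unadjusted p under 0.05, which the counts in these lists use, 12.2% of all tested genes were higher and 4.76% lower at 4 mg/kg, and 12.7% were higher and 11.5% lower at 20 mg/kg. Of 29 other centromere and kinetochore genes 0 passed at either dose (unadjusted, 9 were higher at 4 mg/kg, and 2 higher and 1 lower at 20 mg/kg), and their median change was 0.19 at 4 mg/kg and 0.00 at 20 mg/kg. By the larger of the changes at the 2 doses the first among them were CENPK, a subunit of the constitutive centromere network (1.44 and 1.03), and KNL1, the scaffold of checkpoint kinases (1.18 and 0.49). Of 15 genes of the anaphase-promoting complex and its regulators 0 passed (unadjusted, 2 higher and 1 lower at 4 mg/kg, and 1 higher and 2 lower at 20 mg/kg), with medians of 0.00 and -0.09. The inhibitor of the complex, FBXO5, or EMI1, was at 1.11 and 0.64 (-0.02 at both doses in its next probe set), and its chain-extending enzyme UBE2S at -0.02 and -0.91 (limma adjusted p = 0.0639 at 20 mg/kg). Of 13 other condensin and cohesin genes 0 passed (unadjusted, 2 higher at 4 mg/kg and 3 at 20 mg/kg), with medians of 0.23 and 0.28, led by the cohesin subunit RAD21 (0.95 and 0.96, but -0.15 and 0.01 in its next probe set) and PDS5A (0.61 and 0.88, and 0.51 at both doses in its next probe set).

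Of 12 other mitotic kinases and regulators 1 passed at 20 mg/kg, where 4.33% of all tested genes did, and 0 at 4 mg/kg (0.0584%). Unadjusted, 6 were higher at 4 mg/kg and 2 at 20 mg/kg, with median changes of 0.26 and 0.04. WEE1, the kinase that inhibits CDK1, rose at 20 mg/kg. It read 9.74 and 9.43 with vehicle, 10.26 and 10.42 at 4 mg/kg, then 10.75 and 10.93 at 20 mg/kg. Its groups did not overlap, with 4 mg/kg between the others. Its change was 1.26 (SE 0.14, limma adjusted p = 0.0404) at 20 mg/kg and 0.76 at 4 mg/kg, but -0.10 and -0.14 in its next probe set. The call was lost when any array but vehicle replicate 1 was left out (adjusted p = 0.0988 to 0.16), with the replicate block (0.0868) and with no level filter (0.129). Of 14 other spindle and cytokinesis genes 0 passed (unadjusted, 6 higher at 4 mg/kg and 1 at 20 mg/kg), with medians of 0.35 and 0.09. CKAP2, a spindle protein, was at 1.05 and 1.27 (limma adjusted p = 0.0842 at 20 mg/kg), and KIF20B, a kinesin of the midzone, at 0.81 and 0.02, with 5.81 in 4 mg/kg replicate 2 and 4.18 to 4.22 in the other arrays.

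Of 11 genes of the DREAM and MuvB complexes, which repress or activate the members' promoters, 1 passed at 20 mg/kg (4.33% of all tested genes) and 0 at 4 mg/kg (0.0584%). Unadjusted, and counting LIN9, 3 were higher at 4 mg/kg, and 4 higher and 1 lower at 20 mg/kg. The median changes were 0.11 and 0.00. LIN9, a core MuvB subunit, read 3.99 and 3.92 with vehicle, 4.81 and 4.73 at 4 mg/kg, then 4.70 and 4.80 at 20 mg/kg, so all treated arrays were above vehicle. Its change at 20 mg/kg was 0.79 (SE 0.06, adjusted p = 0.0227 by limma), and 0.81 at 4 mg/kg (adjusted p = 0.0782). Both vehicle arrays lay below the level filter of 4, so LIN9 was tested only through its treated arrays, and its call is no support for a difference. With no level filter it was not called (adjusted p = 0.0765), and log2(value + 16) gave 0.44. This call was also lost with the replicate block (adjusted p = 0.0633) and without any array but vehicle replicate 1 (0.0648 to 0.0939). Of 17 DNA replication genes 0 passed at either dose (unadjusted, 4 higher at 4 mg/kg and 3 lower at 20 mg/kg), with medians of 0.26 and -0.20. Cyclin E2, CCNE2, was at 1.65 and 0.72 (-0.33 and -0.59 in its next probe set) and the origin licensing factor CDC6 at -0.01 and -1.06 (limma adjusted p = 0.0837 at 20 mg/kg). All 17 were lower at 20 than at 4 mg/kg, as were 51.6% of all tested genes, with a median log2 difference of -0.50 against -0.01. None passed, and 9 were lower at an unadjusted p under 0.05, against 8.79% of all tested genes.

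The tumour label was set against markers of epithelial and host cells. All 10 epithelial markers were tested, and their summed intensity was 100400 to 111700 with vehicle, 106200 to 108300 at 4 mg/kg and 89930 to 96930 at 20 mg/kg. At 20 mg/kg 3 of the 10 were above vehicle and 7 below, where 41.8% of all tested genes were above. The 3 were EPCAM (0.50, and 0.58 at 4 mg/kg), CDH1 (0.23) and NKX2-1 (0.10), none past the test. Keratin 18, KRT18, fell at 20 mg/kg (log2 -1.54, SE 0.18, limma adjusted p = 0.0416). It was the 1 marker of the 10 past the test, which called 4.33% of all tested genes at that dose. That call was lost when any array was left out (adjusted p = 0.0905 to 0.155), with the replicate block (0.0622) and with no level filter (0.134). Fibroblast markers had 5 of 10 tested, with sums of 36680 to 39440, 36430 to 37610 and 35950 to 40340, and PDGFRB and THY1 at the floor. COL1A1 was by far the brightest, at 14.95 to 15.15 on the log2 scale, so the sums say little about the others. At 4 mg/kg FAP was at -0.63, COL1A1 at -0.05, COL1A2 at 0.23, COL3A1 at 0.17 and DCN at 0.00, none past the test. Leukocyte markers had 2 of 7 tested, with sums of 104.1 to 108 over all arrays and CD163 at the floor. Endothelial markers had 2 of 5 tested, with sums of 450.3 to 556.8 and VWF at the floor. PECAM1 was the brighter of these 2, at 8.44 to 8.83 against 6.44 to 6.86 for KDR. The labels name the mouse as the organism, while the probe sets are for human transcripts, and how transcripts of host cells read on them was not measured here. The part of the marker differences in the members' values was not tested.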

How the data were processed

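Tumour RNA was hybridised to 6 human expression arrays, 2 per group. What the authors deposited is a single table of linear intensity for 54675 probe sets. The submitters' processing notes name GCRMA and R 2.10.0. GCRMA as a method corrects background by probe sequence and normalizes arrays to each other. The sources used here do not give the set of arrays processed as 1 batch. The lowest intensity is 4.578 (2.19 on the log2 scale), and changes near it are understated. In 5 members both arrays of at least 1 group had equal values (within 1e-06), as in 32.3% of tested genes. Some values were also equal across groups: the intensity of UBE2C was 181.6 in all 6 arrays, and that of AURKA 265.5 in all but 4 mg/kg replicate 2. Members with reported changes held such repeats too. In replicate 1 of both doses CCNA2 was at 642.9 and NDC80 at 73.7. FOXM1 was at 268.3 in vehicle replicate 1 and both 4 mg/kg arrays. The cause of such values was not tested, and they do not show steady expression.

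Intensities were converted to log2. Gene names came from the platform annotation (41097 probe sets with 1 gene, 1801 with several, 11777 with none listed). The 6 arrays were fitted in 1 model with limma 3.58.1 in R 4.3.3 (lmFit, eBayes), two-sided, with Benjamini-Hochberg adjustment and a threshold of 0.05, after testing on simulated data. The fit had 3 residual and 0.723 prior degrees of freedom. Each SE is limma's moderated SE, pooled over the 3 groups. The few arrays limit the precision. Groups do not overlap where arrays differ by more than 1e-06. The highest or lowest array of a gene was counted where it stood apart by over 0.01. The members and lists were chosen with earlier results of these data known. Values in every array are given for members past the test and for the 2 of each role (1 for cytokinesis) with the largest change at either dose. In each further list the genes past the test, or else the 2 that changed most, are given. The step of 0.05 log2 units for the course was set after seeing the data. KNL1 carries its older symbol, CASC5, in the annotation. Alternatives were leaving out each array, a replicate block, other level filters, other probe sets, other scaling, log2(value + 16) and leaving out tied genes. A planned motif search in human promoters was not run, as no human sequence was used here.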

Additional observations from a re-analysis of the deposited data

How the results depend on the processing

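Counts of calls varied with the arrays used, the scaling, the filters and the probe sets. At 20 mg/kg limma called 445 genes, and 5 to 802 when single arrays were left out, 93 with the replicate block, 57 with no level filter, 207 with the next brightest probe sets, 285 without probe sets ending in _x_at or _s_at, 1536 after quantile normalization, 1958 with centred arrays and 819 without genes tied in all groups. Of the members 1 was called, and 0 to 1 with single arrays left out, 0 with the replicate block, with no level filter or with the next brightest probe sets, 2 with a mean log2 of at least 6, 8 after quantile normalization, 11 with centred arrays and 5 without tied genes. At 4 mg/kg limma called 6 genes, 0 to 475 with single arrays left out, 0 with the replicate block, the stricter filter, the next brightest or mean of probe sets, log2(value + 16) or without tied genes, 3 with no level filter, 41 after quantile normalization and 766 with centred arrays. Of the members 1 was called there after quantile normalization and 14 with centred arrays, and their median change was 0.21 to 0.79 with single arrays left out. For 20 against 4 mg/kg limma called 38 genes, 0 to 218 with single arrays left out, 0 with the replicate block, 8 with no level filter, 20 with the next brightest probe sets, 333 after quantile normalization, 494 with centred arrays and 77 without tied genes, with 1 member, KIF23, called under either scaling and a member median of -0.54 to -0.04 with single arrays left out. The member median at 20 mg/kg was 0.04 to 0.28 with single arrays left out. Members highest at 4 mg/kg numbered 13 to 36 with single arrays left out. The causes were not tested, except that leaving out an array leaves fewer samples and the filters change the number of genes tested.

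The replicate numbers were checked as pairs. Over all tested genes, deviations from the group means correlated at 0.15 between vehicle and 4 mg/kg. The correlation was -0.12 between vehicle and 20 mg/kg and 0.13 between the doses. Among the members replicate 2 was higher in 15 of 41 with vehicle, 37 at 4 mg/kg and 32 at 20 mg/kg. With 2 arrays a group these values cannot settle whether the numbers pair the arrays, and the labels do not say. The block left no member called (TOP2A at 1.47, adjusted p = 0.078), and it ended the calls of WEE1, LIN9 and KRT18.

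Of 1028 values of named genes under alternatives 26 changed sign. Of their values as reported only WEE1 at 20 mg/kg had passed the test, and none of the 26 did. At 20 mg/kg these were BIRC5 (-0.13 to 0.02 with single arrays left out), KIF23 (-0.30 to 0.05) and PTTG1 (-0.03 to 0.23), MAD2L1 (-0.24), FBXO5 (-0.02), WEE1 (-0.10) and CCNE2 (-0.59) with the next brightest probe sets, MAD2L1 (-0.24) without _x_at and _s_at probe sets and KIF20B (-0.02) with centred arrays. At 4 mg/kg they were PLK1 (-0.37 to 0.54 with single arrays left out), CDC20 (-0.05 to 0.22), UBE2S (-0.15 to 0.11) and CDC6 (-0.15 to 0.12), FBXO5 (-0.02), RAD21 (-0.15), WEE1 (-0.14), CCNE2 (-0.33) and CDC6 (0.20) with the next brightest probe sets, CDC6 with the mean of probe sets (0.09) and without _x_at and _s_at ones (0.20), and PLK1 and CDC20 (-0.01 for both) with centred arrays. KIF14 was at 0.09 between the doses with its next brightest probe set. With 2 arrays a group and changes of many members near their SE, these arrays cannot settle single members.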
